A study of Mus musculus with 9 samples.

Results

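The genes described here encode the enzymes and transporters that assemble the N-linked glycan of secreted proteins and then trim and extend it on the way through the secretory pathway. There were 39 of them, chosen by name for their place in that pathway, and they were divided by step into 23 genes of the lipid-linked precursor and its sugar and dolichol supply, 5 genes of glucose and mannose trimming in the endoplasmic reticulum (ER), and 11 genes of processing in the Golgi. All 39 were found among the 29995 genes of the table without immunoglobulin (Ig) genes, and all 39 passed the filter on low values that left 12892 genes for testing.

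RNA was sequenced from 9 libraries of splenic cells, 3 in each of 3 sorted groups, and the series describes 3 mice as biological replicates without saying which libraries came from the same mouse. Every group, naive cells included, came from 12-week-old B6.Blimp1+/GFP mice, which carry 1 Prdm1 allele with a green fluorescent protein (GFP) reporter, and all mice had received 50 µg of the hapten conjugate NP-LPS into the peritoneum 4 days before the spleens were taken. Naive B cells were sorted as IgD high, B220 positive cells that did not bind NP. Activated B cells, the antigen-specific group without plasma cell markers, were NP and B220 positive and lacked IgD, GFP and CD138. Plasma cells (PCs) bound NP, lacked IgD and were positive for GFP and CD138, with or without B220. Cells that stained for CD4, CD8a, Ter-119 or F4-80 were gated out of each group. The naive group thus also comes from immunized animals, and the PCs are those of day 4 only. A rise, a fall or a change at activation below is a difference between groups sorted on the same day, not a change followed over time.

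N-glycosylation begins on the cytosolic face of the ER, where sugars from UDP-GlcNAc and GDP-mannose are added one after another to the lipid dolichol. The growing oligosaccharide is flipped into the ER lumen, completed with mannose and glucose, and transferred as a block to asparagines of nascent proteins. Glucosidases and mannosidases then trim it while lectin chaperones use the trimmed forms to follow folding, and Golgi enzymes convert it to a complex glycan that can carry core fucose, galactose and sialic acid. Antibody heavy chains are N-glycosylated, and the fucose and sialic acid on an IgG glycan are known to alter how Fc receptors bind it.

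Libraries held 28500000 to 31700000 estimated reads in the naive group, 34900000 to 38600000 in the activated group and 20200000 to 22100000 in PCs after Ig genes were left out, and 29000000 to 32800000 with them in PCs. The estimated reads behind a member in 1 library went from 87 for Alg13 upward, so counting error was small for most members. The sort was visible in marker genes. The summed level of 6 plasma cell markers was 135 to 162 TPM, a length-corrected abundance scaled to a fixed sum per library, in naive B cells, 449 to 620 in activated B cells and 15847 to 18103 in PCs, with Igj the largest part in both antigen-specific groups and Sdc1 and Irf4 lower in activated than in naive B cells, while 4 markers of naive B cells summed to 4614 to 4736, 691 to 860 and 5.84 to 8.90 TPM. The T cell list of 6 genes summed to at most 6.95 TPM in any library, with Trac at 0. Of 8 myeloid genes, 7 were listed, and these summed to 69.3 to 106 TPM in activated B cells, against 10.5 to 11.4 in naive B cells and 11.8 to 35.6 in PCs. Cd68 (40.3 to 59.8 TPM) and Itgam (11.1 to 14.4) carried most of the activated sum, S100a8 (22.2) and S100a9 (21.4) were high in activated replicate 2 alone of that group, and Lyz2, Csf1r and Emr1 overlapped with naive B cells. The 8 liver genes summed to 1485 TPM in PC replicate 3, against 8.31 and 6.35 in the other PC libraries and at most 4.78 elsewhere. The part of these myeloid and liver transcripts in the differences below was not tested, and calls that change without PC replicate 3 are given beside the result.

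Across the pathway, with the Ig genes left out, the mRNA of most members made up a larger share of the TPM sum in PCs than in either B cell group. Fewer members were called higher with the Ig genes kept, as given below. The summed level of the 39 genes was 1839 ± 26.2 TPM (SD, n = 3) in naive B cells, 1771 ± 19.4 in activated B cells and 4838 ± 333 in PCs. A gene was called when its adjusted p-value from limma was under 0.05 and its fold change over 2. In PCs against the naive group 22 of the 39 members were called higher, where 11.4% of all genes tested were, and 0 were called lower, where 26.3% of all genes were. In PCs against activated B cells 24 members were called higher (9.93% of all genes) and 0 lower (22.3% of all genes). Between activated and naive B cells 2 members were called higher, where 8.13% of all genes were, and 2 lower, where 10.4% were. The 3 comparisons share libraries pairwise, so they are not independent of each other. The RNA is from bulk samples, in which fewer cells of a type and less RNA per cell cannot be told apart.

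The size of the pattern also shows at the threshold of adjusted p-value alone. In PCs against the naive group 30 members were higher at that threshold (18.2% of all genes) and 2, Pmm2 and Slc35c1, were lower (42.2% of all genes). Against activated B cells 30 members were higher (15.7%) and 2, Pmm2 and Dpm2, were lower (38.1%). The lowest log2 change of any member was -0.36 and -0.47, and at an unadjusted p-value under 0.05 in limma the same count of 2 was lower in each. Between the B cell groups 8 members were higher (18.6%) and 7 lower (23.5%) by adjusted p-value alone. The median log2 change of the 39 members was 1.17 in PCs against the naive group and 1.16 against activated B cells, while the median over all genes tested was -0.47 and -0.30. For activated against the naive group the members' median was -0.019 and that of all genes -0.16. By range alone, 31 members in PCs lay above every naive library (21.0% of all genes) and 2 below (48.7%), 30 lay above every activated library (17.3%) and 2 below (40.9%), and between the B cell groups 10 were higher (23.6%) and 9 lower (32.4%) without overlap.

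Values of PCs depend on what the TPM sum contains. With the Ig genes kept in the table, where Ig mRNA takes part of the fixed sum, the median log2 change of genes measured in both fits shifted by -0.88 in PCs against the naive group and by -0.94 against activated B cells. All genes then split into 551 higher and 7943 lower, and 420 higher and 7355 lower. Under that scaling 7 members were called higher and 6 lower in PCs against the naive group, and 7 higher and 4 lower against activated B cells. The members still called higher were Dpagt1, Alg8, Gmppa, Gmppb, Gfpt1, Man1b1 and Fut8 against the naive group and Alg2, Gmppa, Gmppb, Gfpt1, Man1b1, Fut8 and St6gal1 against activated B cells. Those called lower were Alg9, Dpm2, Mpdu1, Pmm2, Slc35a1 and Slc35c1 against the naive group and Dpm2, Mpdu1, Pmm2 and Slc35a1 against activated B cells. Scaling by the median of ratios shifted the medians the other way, by 0.49 and 0.38, and split all genes into 2349 higher and 1814 lower, and 2023 higher and 1788 lower, where the column sum gave 1473 and 3397, and 1280 and 2870. The members were then called higher in 30 and 29 cases and lower in 0 and 0. Quantile normalization gave 26 and 29 higher and 0 and 0 lower, with 2063 higher and 2047 lower, and 1795 higher and 1843 lower, among all genes. For activated against the naive group, the split of all genes was 1048 higher and 1340 lower by column sum, 1258 and 1022 by median of ratios, and 1157 and 976 by quantile normalization.

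**Figure D1:**
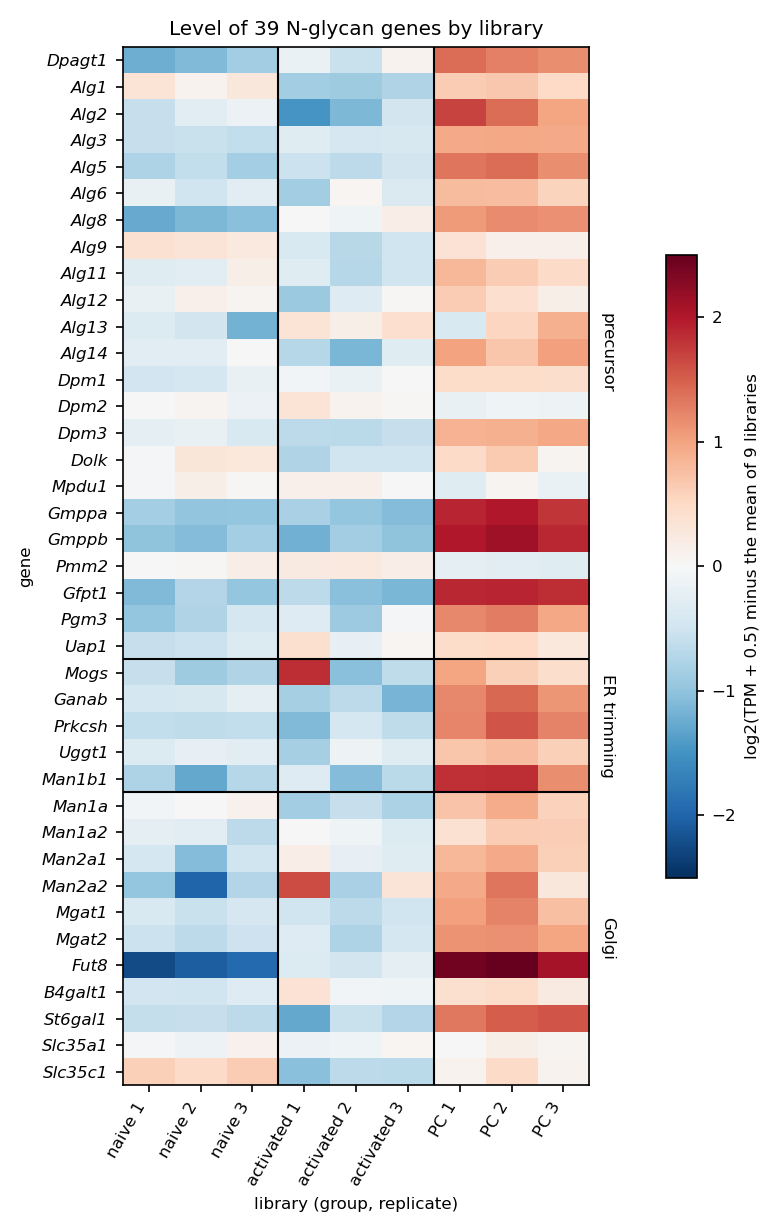
Level of each of the 39 genes (rows, grouped by step) in each of the 9 libraries (columns), as log2(TPM + 0.5) minus the gene's mean over the 9 libraries, with red above and blue below the mean. Most rows are blue in the 6 B cell libraries and red in the 3 PC libraries, while Dpm2 and Pmm2 are pale blue in PCs, and Mogs is darkest in activated B cell replicate 1.

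**Figure D2:**
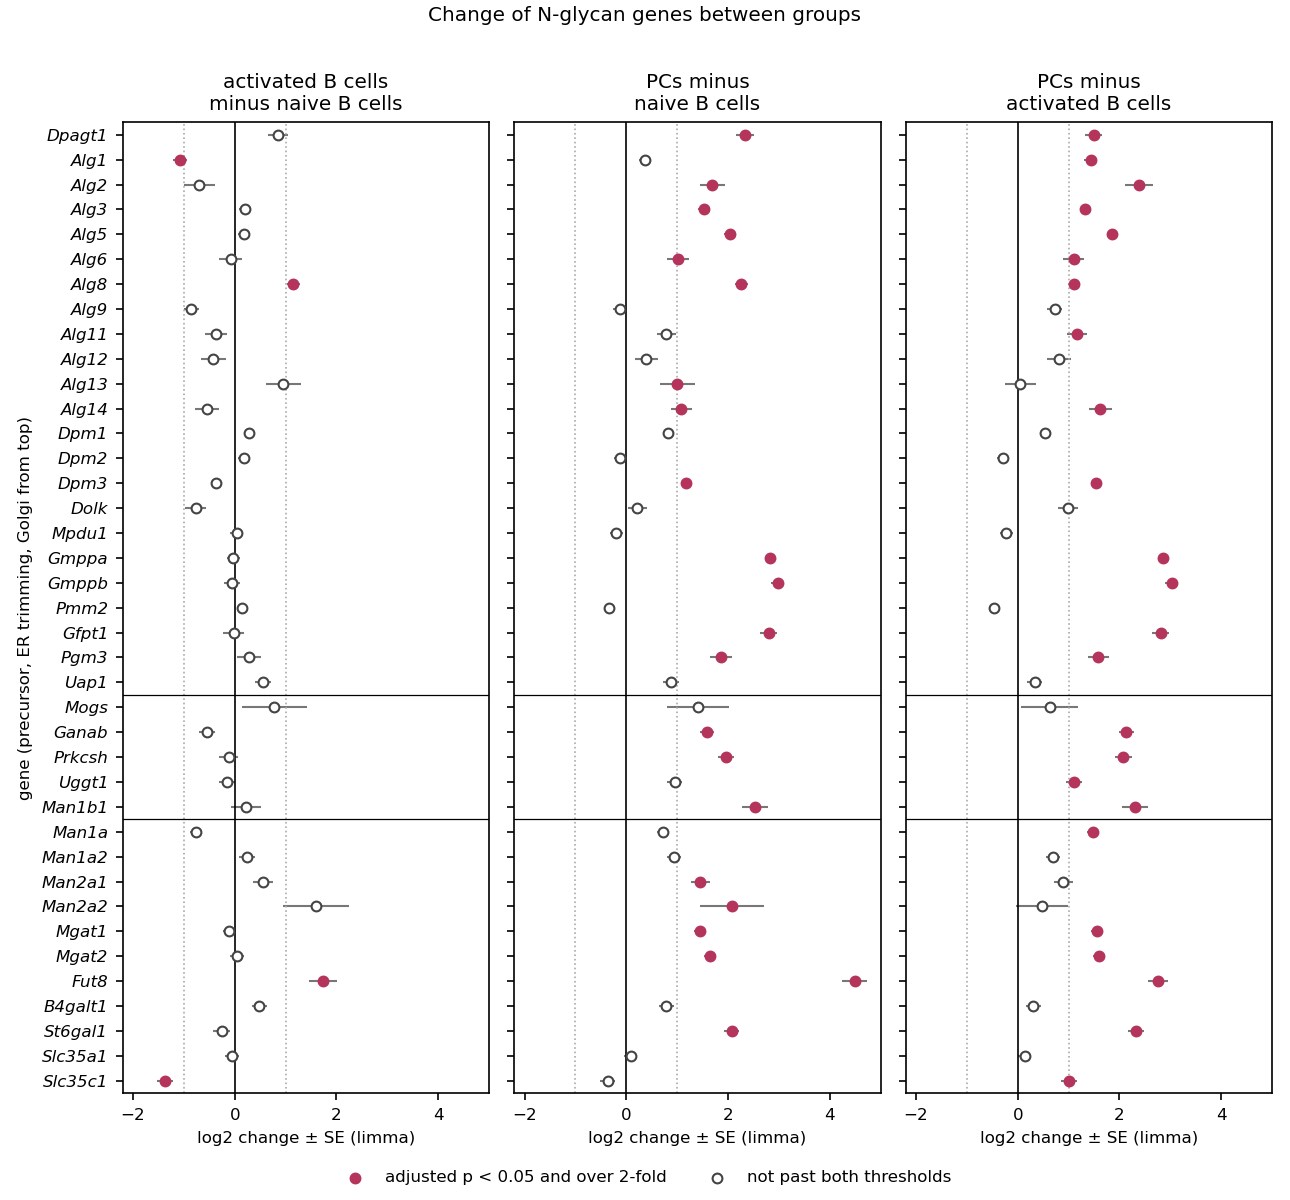
Log2 change with its standard error from limma for each of the 39 genes in the 3 comparisons. Filled points passed an adjusted p-value of 0.05 and a 2-fold change, and dotted lines mark a 2-fold change. Filled points number 4 in the left panel, 22 in the middle and 24 on the right, where none lies left of 0.

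Promoter windows in RefSeq (build GRCm38.p6, 250 bases before to 50 after a transcript start) were available for 33 members and not for Dpagt1, Alg2, Alg11, Gmppb, Man1a2 and Man2a2. They were searched on both strands for motifs that ER stress regulators are known to use, since most members had higher TPM in PCs with the Ig genes left out. The XBP1-type motif TGACGTGG was found in 0 of the 33 members and in 0.714% of 27025 genes with a window. The ERSE-II motif, ATTGG and CCACG with 1 base between them, was found in 0 members and 0.0444% of genes. The ER stress element (ERSE), CCAAT and CCACG with 9 bases between them, was found in 1 member, Alg12 (3.03%, against 0.137% of genes). Its last 5 bases, CCACG, which are also part of ERSE-II, stood alone or within it in 16 members (48.5%, against 35.5% of genes). The shorter TGACGT, which lies inside TGACGTGG, was found in 8 members (24.2%, against 8.37% of genes), namely Alg13, Dpm1, Dpm2, Mpdu1, Uap1, Mogs, Prkcsh and Man1b1. Of these 8, only Alg13, Prkcsh and Man1b1 were called higher in PCs in either comparison. These matches describe letters in a window and are not binding sites.

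Windows of 4 members are printed 5′ to 3′ on the strand of the gene, with the motif in capitals. They were chosen after the matches were seen. Alg12 (chr15:88819269-88819568, minus strand) is the 1 member with a full ER stress element, at -220 to -202 from the start. Prkcsh (chr9:22002738-22003037, plus strand) and Man1b1 (chr2:25332493-25332792, plus strand) hold TGACGT, the latter on the opposite strand. Fut8 (chr12:77238489-77238788, plus strand, 1 of 4 windows) had the largest rise in PCs against the naive group and holds the CCACG core on the opposite strand, at -244 to -240 and -134 to -130.
Alg12: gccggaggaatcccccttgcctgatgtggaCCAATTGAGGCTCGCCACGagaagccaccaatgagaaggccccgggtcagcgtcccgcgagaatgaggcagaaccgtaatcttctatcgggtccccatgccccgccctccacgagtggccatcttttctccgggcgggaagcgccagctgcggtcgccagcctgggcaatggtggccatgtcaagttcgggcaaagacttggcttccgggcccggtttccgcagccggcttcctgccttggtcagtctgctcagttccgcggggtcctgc
Prkcsh: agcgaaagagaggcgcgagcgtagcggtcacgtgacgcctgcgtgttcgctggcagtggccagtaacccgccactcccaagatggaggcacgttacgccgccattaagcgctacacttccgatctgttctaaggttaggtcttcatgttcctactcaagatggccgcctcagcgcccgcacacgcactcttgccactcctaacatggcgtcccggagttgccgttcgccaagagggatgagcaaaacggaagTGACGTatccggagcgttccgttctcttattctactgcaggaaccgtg
Man1b1: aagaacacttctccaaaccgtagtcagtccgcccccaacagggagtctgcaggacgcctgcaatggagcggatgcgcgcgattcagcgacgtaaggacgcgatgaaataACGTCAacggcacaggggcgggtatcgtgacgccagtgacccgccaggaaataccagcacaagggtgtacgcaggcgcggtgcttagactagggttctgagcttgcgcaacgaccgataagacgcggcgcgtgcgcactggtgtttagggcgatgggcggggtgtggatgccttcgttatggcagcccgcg
Fut8: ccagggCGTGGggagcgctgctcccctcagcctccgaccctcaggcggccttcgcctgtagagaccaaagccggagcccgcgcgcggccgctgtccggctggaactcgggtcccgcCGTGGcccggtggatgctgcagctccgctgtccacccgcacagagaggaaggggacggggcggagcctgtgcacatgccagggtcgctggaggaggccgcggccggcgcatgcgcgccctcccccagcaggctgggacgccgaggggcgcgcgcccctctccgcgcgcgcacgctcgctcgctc

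The first step in order is the supply of activated sugars. Here Gfpt1, Gmppa and Gmppb rose in PCs by more than 7-fold in mean TPM, Pgm3 rose less, and Uap1 and Pmm2 were not called. Gfpt1 (chr6:87042846-87092197, plus strand), the rate-limiting enzyme of UDP-GlcNAc synthesis, stood at 5.28, 7.00 and 5.85 TPM in naive B cells, 7.41, 5.53 and 5.15 in activated B cells and 45.1, 45.9 and 43.8 in PCs. The PC libraries lay far above an overlapping pair of B cell groups. Its log2 change in PCs was 2.80 ± 0.17 (SE, limma adjusted p = 1.45e-07) against naive and 2.82 ± 0.17 (adjusted p = 1.79e-07) against activated B cells.

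Pgm3, which acts later on the same route, stood at 9.48, 11.04 and 14.0 TPM in naive B cells, 15.1, 9.87 and 18.3 in activated B cells and 44.4, 47.0 and 37.9 in PCs. It rose by a log2 change of 1.87 and 1.59 in PCs (limma adjusted p = 2.54e-05 and 7.75e-05). Exons of Dop1a on the opposite strand overlap 28.3% of Pgm3 exon length, and the cDNA kit does not mark strand, so reads there cannot be assigned with certainty. Uap1, the last enzyme, passed the 2-fold limit in neither PC comparison, but did so against the naive group under median-of-ratios scaling (1.38, adjusted p = 9.99e-06) and with quantile normalization (1.24, adjusted p = 7.53e-06). Its levels were 30.3, 30.9 and 35.5 TPM in naive, 59.4, 39.1 and 46.6 in activated B cells and 62.6, 64.0 and 54.2 in PCs, so that it was higher in activated than in naive B cells without overlap (log2 change 0.55, limma adjusted p = 0.0204), while both antigen-specific groups overlapped.

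GDP-mannose feeds the cytosolic mannosyltransferases and, through dolichol-phosphate-mannose, the lumenal ones. Gmppb (chr9:108049242-108052801, plus strand), the catalytic subunit of GDP-mannose pyrophosphorylase, stood at 22.5, 21.2 and 24.9 TPM in naive B cells, 19.3, 24.7 and 22.5 in activated B cells and 184, 199 and 168 in PCs. Gmppa (chr1:75435930-75443179, plus strand), its regulatory partner, stood at 52.9, 48.0 and 48.7, then 54.4, 48.6 and 44.97, then 364, 386 and 333 TPM. For both genes the B cell groups overlapped and the PCs stood apart. Against activated B cells the log2 change was 3.03 ± 0.13 for Gmppb (limma adjusted p = 1.39e-08) and 2.86 ± 0.11 for Gmppa (adjusted p = 5.1e-09). The Gmppb value is the largest among members in that comparison. Exons of Rnf123 on the opposite strand overlap 33.6% of Gmppb exon length. The ratio of Gmppa to Gmppb TPM stayed between 1.95 and 2.81 in all 9 libraries, and both subunits rose by a like factor.

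Pmm2, which makes the mannose phosphate that Gmppb uses, went the other way. It stood at 59.0, 61.0 and 66.5 TPM in naive B cells, 69.5, 70.5 and 66.7 in activated B cells and 50.8, 49.2 and 48.5 in PCs, without overlap between PCs and either B cell group. Its log2 change in PCs was -0.33 ± 0.10 against naive (limma adjusted p = 0.0156) and -0.47 ± 0.10 against activated B cells (adjusted p = 0.0022), both under 2-fold. Under median-of-ratios scaling the values were 0.16 (adjusted p = 0.197) and -0.086 (adjusted p = 0.484). With the Ig genes kept they were -1.52 (limma adjusted p = 6.5e-07) and -1.65 (limma adjusted p = 4.2e-07), and Pmm2 was called lower in both. Whether Pmm2 was lower in PCs, and by how much, thus depends on the scaling. The ratio of Gmppb to Pmm2, which scaling does not touch, was 0.347 to 0.381 in naive B cells, 0.279 to 0.350 in activated B cells and 3.47 to 4.04 in PCs.

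**Figure D3:**
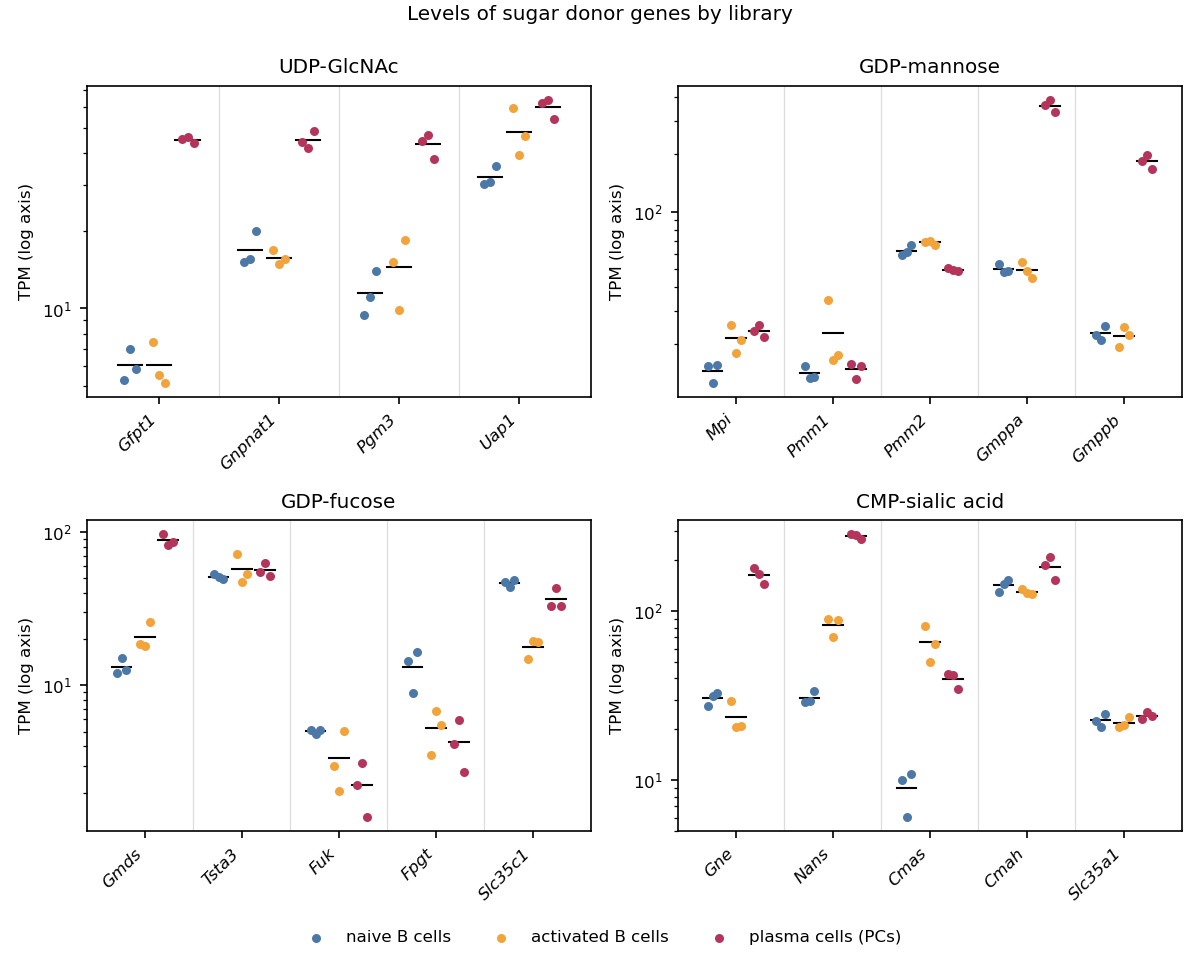
Level in TPM (log axis) of genes on the routes to 4 sugar donors, with 1 point per library and a bar at the mean of 3 libraries, for naive B cells, activated B cells and PCs. Gfpt1, Gmppa, Gmppb, Gmds, Gne and Nans stand above both B cell groups in PCs, while Pmm2, Tsta3 and Slc35a1 stay near the B cell level.

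Other genes of the donor routes, set out here after their values were seen, had a similar split. Gmds, which commits GDP-mannose to GDP-fucose, rose by a log2 change of 2.69 in PCs against the naive group (limma adjusted p = 1.72e-07) and Gne, which commits UDP-GlcNAc to sialic acid, by 2.39 (adjusted p = 1.87e-07). Gnpnat1, next after Gfpt1, rose by 1.39 (adjusted p = 9.72e-06). Tsta3, the enzyme after Gmds, had a log2 change of 0.13 (adjusted p = 0.482), and Pmm1, the paralog of Pmm2, one of 0.062 (adjusted p = 0.857). The genes that salvage free fucose were below the naive level in PCs, by a log2 change of -1.06 for Fuk (adjusted p = 0.0148) and -1.54 for Fpgt (adjusted p = 0.002).

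Assembly on dolichol starts with Dpagt1, the enzyme that tunicamycin blocks. It stood at 12.6, 13.8 and 16.4 TPM in naive B cells, 26.9, 20.3 and 32.2 in activated B cells and 81.0, 73.1 and 68.5 in PCs, so that the 3 groups did not overlap and were ordered from naive to PC. The log2 change was 0.84 ± 0.20 between activated and naive B cells (limma adjusted p = 0.00618, under 2-fold) and 1.49 ± 0.16 from activated B cells to PCs (adjusted p = 1.82e-05). Without activated replicate 2 the first value was 1.02, past the 2-fold limit.

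The next GlcNAc is added by the pair of Alg14, the membrane anchor, and Alg13, the catalytic partner, and their levels differed in pattern across the groups. Alg14 stood at 8.80, 8.72 and 10.9 TPM in naive B cells, 6.36, 4.60 and 8.68 in activated B cells and 22.1, 17.6 and 22.5 in PCs, a rise of 1.09 and 1.63 in log2 (limma adjusted p = 0.000872 and 9.22e-05). Alg13, with the fewest reads of any member, stood at 5.97, 5.47 and 3.13, then 9.92, 8.55 and 10.4, then 5.80, 11.4 and 14.7 TPM. The PC libraries spread over both B cell groups. Its call against the naive group (log2 change 1.00 ± 0.34, adjusted p = 0.026) was lost without naive replicate 3 (0.74, adjusted p = 0.113), when PC replicate 2 was left out (0.91, adjusted p = 0.0716) and when PC replicate 3 was (0.73, adjusted p = 0.0808).

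Of the cytosolic mannosyltransferases, Alg1 fell in activated B cells, and Alg1, Alg2 and Alg11 were each higher in PCs than in that group. Alg1 (chr16:5233621-5244912, plus strand), which adds the first mannose, stood at 42.8, 35.9 and 41.5 TPM in naive B cells, 18.4, 18.1 and 19.9 in activated B cells and 53.0, 54.0 and 48.2 in PCs. It fell by 1.08 in log2 between naive and activated B cells (limma adjusted p = 0.000123) and was 1.44 ± 0.13 higher in PCs than in activated B cells (adjusted p = 4.27e-06), but only 0.36 higher than in naive cells (adjusted p = 0.0189). Exons of Eef2kmt on the opposite strand overlap 17.6% of Alg1 exon length, and with median-of-ratios scaling the change was -0.97, just under 2-fold.

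Alg2, which adds the following mannoses, stood at 9.56, 11.8 and 13.1 TPM in naive B cells, 4.91, 6.39 and 10.4 in activated B cells and 48.2, 39.01 and 29.4 in PCs. The B cell groups overlapped, and the rise from activated B cells to PCs was 2.38 ± 0.27 in log2 (limma adjusted p = 2.84e-05). Against the naive group Alg2 was no longer called with the Ig genes kept (0.51, adjusted p = 0.0789). Alg11, the last enzyme on the cytosolic face, had lower levels, at 7.68, 7.90 and 10.7 TPM in naive B cells, 7.67, 5.70 and 6.63 in activated B cells and 17.4, 15.3 and 13.6 in PCs. It was called against activated B cells (1.16 ± 0.20, adjusted p = 0.000469), and the change against the naive group was 0.79 (adjusted p = 0.00381), or 1.28 under median-of-ratios scaling and 1.33 with quantile normalization, both past the limit. The 2 log2 changes were not tested against each other.

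On the glucose branch, Alg8, which acts in the lumen, and Alg5, which supplies its donor, had larger log2 changes in PCs against the naive group (2.26 and 2.04) than any mannosyltransferase of the lumen. Alg8 (chr7:97371606-97392185, plus strand), a glucosyltransferase, stood at 16.8, 18.4 and 19.6 TPM in naive B cells, 40.8, 37.7 and 46.2 in activated B cells and 85.7, 92.8 and 90.6 in PCs. The groups rose in order without overlap, by 1.15 ± 0.13 in log2 at activation (limma adjusted p = 8.49e-05) and by a further 1.11 ± 0.11 to PCs (adjusted p = 9.48e-06). Alg5, which makes the dolichol-phosphate-glucose that Alg6 and Alg8 consume, stood at 48.7, 53.7 and 45.7, then 56.9, 52.3 and 60.4, then 212, 218 and 187 TPM. It rose by 1.85 ± 0.11 from activated B cells to PCs (adjusted p = 1.57e-07) with overlapping B cell groups.

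Alg6, the glucosyltransferase before Alg8, rose less. It stood at 11.3, 9.03 and 10.6 TPM in naive B cells, 6.88, 13.4 and 10.01 in activated B cells and 22.8, 22.4 and 19.3 in PCs. Its log2 changes of 1.02 and 1.10 (limma adjusted p = 0.0016 and 0.00115) lay at the 2-fold limit, and the calls were lost without naive replicate 2 (0.93), PC replicate 1 (0.98) or PC replicate 2 (0.99) against the naive group and without activated replicate 1 (0.86) against activated B cells.

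Of the lumenal mannosyltransferases, Alg3 was called in both PC comparisons, and Alg9 and Alg12 rose past the 2-fold limit against activated B cells under other scalings. Alg3 stood at 25.8, 26.1 and 25.1 TPM in naive B cells, 31.4, 28.8 and 29.3 in activated B cells and 74.7, 75.95 and 74.5 in PCs, a rise of 1.52 and 1.32 in log2 (limma adjusted p = 3.98e-07 and 1.29e-06). Alg9 was lower in activated than in naive B cells by less than 2-fold (log2 change -0.85, adjusted p = 0.000988) and stood at 28.3 ± 1.42 TPM in naive B cells and 26.1 ± 2.55 in PCs. From activated B cells to PCs its log2 change was 1.11 under median-of-ratios scaling (adjusted p = 5.05e-05) and 1.14 with quantile normalization (adjusted p = 4.81e-05). Against the naive group it was called lower in PCs with the Ig genes kept (-1.28, limma adjusted p = 1.3e-05). Alg12, the member with the ER stress element printed above, stood at 13.9 ± 1.58 TPM in naive B cells, 10.7 ± 3.57 in activated B cells and 18.6 ± 3.10 in PCs, with a log2 change of 0.81 from activated B cells to PCs (adjusted p = 0.013). That value was 1.20 under median-of-ratios scaling, 1.24 with quantile normalization and 1.03 without activated replicate 3, each past the test.

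Dolichol-phosphate-mannose, the mannose donor in the lumen, is made by a synthase with the catalytic subunit Dpm1 and the membrane subunits Dpm2 and Dpm3, whose genes differed in PCs. Dpm3 (chr3:89259358-89267079, plus strand) was the most abundant precursor gene in naive B cells and PCs, at 174, 183 and 160 TPM in naive B cells, 131, 131 and 139 in activated B cells and 382, 383 and 406 in PCs. It rose by 1.17 ± 0.08 and 1.55 ± 0.08 in log2 (limma adjusted p = 5.36e-07 and 9.48e-08), and by 0.93 against the naive group with quantile normalization. Dpm2 stood at 118, 121 and 105, then 148, 124 and 119, then 101, 108 and 106 TPM, and the changes in PCs were -0.12 (adjusted p = 0.351) and -0.30 (adjusted p = 0.0387). Under median-of-ratios scaling both were positive, at 0.37 and 0.085. With the Ig genes kept both were called lower, at -1.33 (limma adjusted p = 3.1e-06) and -1.49 (limma adjusted p = 1.5e-06).

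Dpm1 stood at 110 ± 12.9 TPM in naive B cells, 134 ± 6.98 in activated B cells and 195 ± 2.05 in PCs, a log2 change of 0.82 from naive B cells to PCs (limma adjusted p = 3.44e-05) that was under 2-fold, but 1.31 under median-of-ratios scaling (adjusted p = 5.42e-07). Mpdu1, needed for the use of dolichol-bound mannose and glucose, had a log2 change of -0.19 in PCs against the naive group (adjusted p = 0.207). With the Ig genes kept it was called lower, at -1.37 against naive (limma adjusted p = 2.2e-06) and -1.40 against activated B cells (limma adjusted p = 2.1e-06). Dolk, the kinase that makes dolichol phosphate, was lower in activated than in naive B cells (-0.77, adjusted p = 0.0119) and higher in PCs than in activated B cells (0.99, adjusted p = 0.00159), both under 2-fold. The latter passed that limit under median-of-ratios scaling (1.37), with quantile normalization (1.42) and without PC replicate 3 (1.16).

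After transfer to protein, glucosidase I, encoded by Mogs, removes the outer glucose. Mogs stood at 5.23, 4.12 and 4.56 TPM in naive B cells, 30.1, 3.61 and 4.99 in activated B cells and 16.5, 12.3 and 11.1 in PCs. One activated library, replicate 1, was above every PC library, and the other two were at the naive level. With that library the log2 change in PCs was 1.41 ± 0.61 against the naive group (limma adjusted p = 0.0675) and 0.63 ± 0.55 against activated B cells (adjusted p = 0.37). Without it the values were 1.41 (adjusted p = 0.000354) and 1.52 (adjusted p = 0.000788).

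Both subunits of glucosidase II, which removes the remaining glucoses, rose in PCs. Ganab (chr19:8898071-8916672, plus strand), the catalytic subunit, stood at 48.7, 49.8 and 55.6 TPM in naive B cells, 36.7, 41.4 and 29.1 in activated B cells and 153, 178 and 141 in PCs. Prkcsh (chr9:22002806-22014222, plus strand), the regulatory subunit, stood at 32.8, 32.4 and 33.1, then 23.3, 37.1 and 32.3, then 119, 151 and 120 TPM. From activated B cells to PCs the log2 change was 2.14 ± 0.15 for Ganab (limma adjusted p = 4.99e-07) and 2.07 ± 0.16 for Prkcsh (adjusted p = 1.58e-06), and against the naive group it was 1.60 and 1.96. The ratio of Ganab to Prkcsh TPM was 1.48 to 1.68 in naive B cells, 0.902 to 1.57 in activated B cells and 1.17 to 1.28 in PCs, so that naive B cells and PCs did not overlap.

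Uggt1 puts a glucose back on glycoproteins that have not folded, and was the most abundant gene of ER trimming. It stood at 98.4, 108 and 103 TPM in naive B cells, 69.8, 114 and 100 in activated B cells and 202, 214 and 187 in PCs. Its log2 change was 1.11 ± 0.15 against activated B cells (limma adjusted p = 0.000101) and 0.95 ± 0.15 against the naive group (adjusted p = 0.000252), and the former was 0.91 without activated replicate 1, its lowest library, while the latter was 1.44 under median-of-ratios scaling and 1.00 without PC replicate 3, both past the limit.

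Man1b1 (chr2:25332338-25352212, plus strand) removes a mannose in the ER and can mark a glycoprotein for degradation. It stood at 20.1, 13.9 and 20.9 TPM in naive B cells, 27.4, 15.9 and 21.5 in activated B cells and 124, 126 and 77.8 in PCs. The PC libraries were apart from overlapping B cell groups, with PC replicate 3 the lowest of them. Its log2 change of 2.31 ± 0.25 against activated B cells was the largest among the 5 ER trimming genes (limma adjusted p = 1.84e-05).

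**Figure D4:**
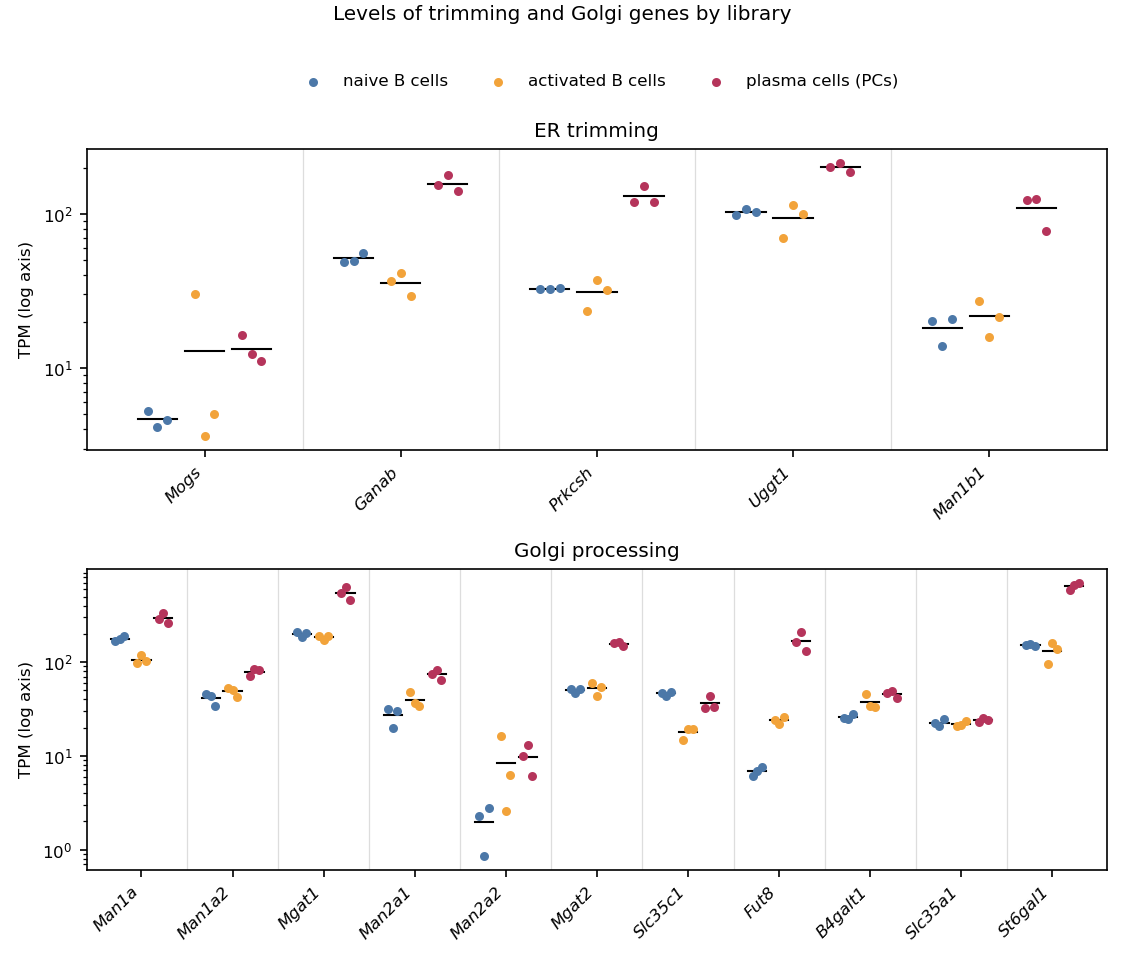
Level in TPM (log axis) of the 5 ER trimming genes and the 11 Golgi genes, with 1 point per library and a bar at the mean of 3 libraries. Fut8 is the gene whose 3 groups are most widely separated, Slc35c1 dips in activated B cells, Slc35a1 is level, and Mogs has 1 high library among activated B cells.

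In the Golgi, Fut8 had the largest change of all 39 members in PCs against the naive group. Fut8 (chr12:77238125-77476338, plus strand) adds the core fucose that antibodies and many other glycoproteins carry. It stood at 6.04, 6.87 and 7.54 TPM in naive B cells, 23.9, 22.03 and 25.9 in activated B cells and 163, 209 and 130 in PCs, in 3 ranges that did not overlap. Mean TPM was 3.51-fold higher in activated than in naive B cells and a further 6.99-fold higher in PCs, or 24.5-fold from naive cells to PCs. The corresponding log2 changes were 1.73 ± 0.27 (limma adjusted p = 0.00064), 2.76 ± 0.19 (adjusted p = 5.3e-07) and 4.49 ± 0.25 (adjusted p = 7.44e-08). With the Ig genes kept, the last value was 3.27 and the gene was still called in each comparison.

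Slc35c1 (chr2:92452764-92460538, minus strand), which carries GDP-fucose into the Golgi for Fut8 and other fucosyltransferases, was lower in activated than in naive B cells, the opposite of Fut8. It stood at 47.2, 43.5 and 48.2 TPM in naive B cells, 14.8, 19.3 and 19.2 in activated B cells and 32.8, 43.2 and 32.9 in PCs. It fell by 1.37 in log2 between naive and activated B cells (limma adjusted p = 8.98e-05) and was again higher in PCs by 1.01 ± 0.16 (adjusted p = 0.000353). PCs were still below naive B cells by less than 2-fold (-0.36, adjusted p = 0.048). That value became 0.13 under median-of-ratios scaling and -1.54 with the Ig genes kept, called lower (limma adjusted p = 3.8e-06). The call in PCs against activated B cells was lost without activated replicate 1 (0.89) or PC replicate 2 (0.88), and with the Ig genes kept (-0.16). The ratio of Fut8 to Slc35c1 TPM within a library was 0.128 to 0.158 in naive B cells, 1.14 to 1.62 in activated B cells and 3.95 to 4.96 in PCs.

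St6gal1 (chr16:23224740-23360350, plus strand), the sialyltransferase that caps galactose on N-glycans of B cells, was the most abundant member in PCs. It stood at 154, 156 and 147 TPM in naive B cells, 95.4, 159 and 139 in activated B cells and 582, 662 and 697 in PCs. The log2 change was 2.07 ± 0.15 against naive (limma adjusted p = 6.82e-07) and 2.33 ± 0.15 against activated B cells (adjusted p = 3.85e-07). Its highest library, PC replicate 3, is the one with liver transcripts, and without it the latter value was 2.27. With the Ig genes kept, the change against naive B cells was 0.85, under 2-fold.

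Slc35a1 and B4galt1, a transporter and a galactosyltransferase whose products St6gal1 can use, were not called in PCs, though for both this depends on the scaling. Slc35a1, which carries CMP-sialic acid into the Golgi, stood at 22.4, 20.7 and 24.7 TPM in naive B cells, 20.7, 21.2 and 23.7 in activated B cells and 23.0, 25.2 and 24.1 in PCs, with overlapping groups and a log2 change of 0.14 ± 0.13 from activated B cells to PCs (limma adjusted p = 0.395). With the Ig genes kept it was called lower, at -1.07 against naive and -1.004 against activated B cells. B4galt1, which adds galactose, stood at 25.4, 25.0 and 28.1, then 45.3, 33.8 and 32.96, then 47.2, 49.1 and 41.4 TPM. It was higher in activated than in naive B cells (0.48, adjusted p = 0.0275) and in PCs than in naive B cells (0.79, adjusted p = 0.000961), under 2-fold in both cases, while the latter was 1.28 under median-of-ratios scaling (adjusted p = 1.18e-05) and 1.19 with quantile normalization (adjusted p = 7.69e-06). St6gal1 was 5.96 to 7.52 times Slc35a1 in naive B cells, 4.61 to 7.51 times in activated B cells and 25.3 to 29.0 times in PCs. Outside the 39 members, B4galt3, a paralog of B4galt1, was called lower in PCs, as given below. Slc35a2, the UDP-galactose transporter gene, was called higher. Its log2 change was 1.88 against naive (limma adjusted p = 1.89e-05) and 2.56 against activated B cells (adjusted p = 4.69e-06).

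Golgi mannosidases come in paralog pairs. Man1a and Man1a2 differed in pattern across the groups, and the genes of a pair were not tested against each other. Man1a (chr10:53904785-54076609, minus strand), which trims mannoses before Mgat1 can act, stood at 169, 175 and 191 TPM in naive B cells, 96.9, 118 and 102 in activated B cells and 291, 337 and 262 in PCs. Its groups did not overlap and the level was lowest in activated B cells, with a log2 change of -0.76 ± 0.12 at activation (limma adjusted p = 0.000736, under 2-fold, and -1.03 with quantile normalization) and a rise of 1.48 ± 0.12 to PCs (adjusted p = 1.87e-06). Against the naive group Man1a had a log2 change of 0.72 in PCs (limma adjusted p = 0.000256), under 2-fold. That value was 1.22 under median-of-ratios scaling and -0.49 with the Ig genes kept. Man1a2 did not dip, at 45.3, 43.9 and 33.9, then 53.5, 49.9 and 42.5, then 70.4, 83.5 and 83.1 TPM. Its log2 change in PCs was 0.94 against naive (limma adjusted p = 0.000199) and 0.70 against activated B cells (adjusted p = 0.00147). Under median-of-ratios scaling these were 1.43 and 1.08, past the 2-fold limit. The ratio of Man1a to Man1a2 was 3.73 to 5.62 in naive B cells, 1.81 to 2.40 in activated B cells and 3.15 to 4.13 in PCs, so the middle group lay below both others in every library.

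Man2a1, which trims the mannoses left after Mgat1 has acted, stood at 31.4, 19.7 and 29.9 TPM in naive B cells, 47.9, 37.0 and 34.3 in activated B cells and 75.6, 82.0 and 64.6 in PCs. It rose against the naive group by 1.45 ± 0.19 in log2 (limma adjusted p = 6.36e-05), and the difference from activated B cells was 0.90 (adjusted p = 0.00144), or 1.28 under median-of-ratios scaling and 1.21 with quantile normalization. Its paralog Man2a2 was the least abundant member in naive B cells, at 2.26, 0.853 and 2.76 TPM, and stood at 16.1, 2.56 and 6.24 in activated B cells and 9.87, 13.2 and 6.04 in PCs. It was called against the naive group (2.08 ± 0.63, adjusted p = 0.0152), a call that was lost without naive replicate 2, its lowest library (1.69, adjusted p = 0.0594). Between activated and naive B cells its log2 change was 1.60 (adjusted p = 0.0708), and it was called with the deposited log2 values (1.89, adjusted p = 0.0274), under median-of-ratios scaling (1.72, adjusted p = 0.0489) and without activated replicate 2 (2.19, adjusted p = 0.0107), among other settings.

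Mgat1 (chr11:49244191-49263030, plus strand), whose GlcNAc opens the way to hybrid and complex glycans, was the most abundant member in both B cell groups. It stood at 208, 184 and 202 TPM in naive B cells, 191, 172 and 191 in activated B cells and 552, 637 and 459 in PCs. Mgat2, which adds the GlcNAc of the other arm, stood at 51.1, 46.8 and 52.0, then 59.2, 43.2 and 54.8, then 161, 164 and 148 TPM. The log2 change from activated B cells was 1.56 ± 0.12 for Mgat1 (limma adjusted p = 1.49e-06) and 1.60 ± 0.12 for Mgat2 (adjusted p = 1.25e-06), and the ratio of Mgat1 to Mgat2 stayed between 3.10 and 4.07 in all 9 libraries.

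Set beside each other with the Ig genes left out, all 3 steps stood higher in PCs, and ER trimming had the largest median change from activated B cells. Called higher in PCs against activated B cells were 14 of 23 precursor genes, 4 of 5 ER trimming genes and 6 of 11 Golgi genes (9.93% of all genes). Against the naive group 13, 3 and 6 were called higher (11.4% of all genes). The median log2 change from activated B cells to PCs was 1.16 for the precursor genes, 2.07 for ER trimming and 1.01 for the Golgi genes (-0.30 over all genes). From naive B cells it was 1.02, 1.60 and 1.45 (-0.47 over all genes). Between activated and naive B cells the medians were -0.019, -0.12 and 0.049 (-0.16 over all genes). With the Ig genes kept, the Golgi median lay 1.12 above an all-gene median of -1.27 against activated B cells, and so was negative. The precursor median then lay 1.34 above an all-gene median of -1.40 against the naive group, and was also negative. The steps were not tested against each other, and they hold few genes.

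The balance of mRNA between the steps moved by a few percentage points. Summed precursor genes stood at 878 ± 15.1 TPM in naive B cells, 904 ± 39.4 in activated B cells and 2141 ± 80.1 in PCs, ER trimming genes at 210 ± 6.25, 196 ± 13.8 and 611 ± 72.1 TPM, and Golgi genes at 750 ± 24.3, 671 ± 6.80 and 2087 ± 192 TPM. The precursor share of the members' TPM was 47.1 to 48.9% in naive B cells, 49.1 to 52.2% in activated B cells and 42.5 to 45.2% in PCs. The Golgi share was 39.7 to 41.7%, 37.3 to 38.8% and 42.0 to 44.4%. Neither of these shares overlapped between groups, and activated B cells lay at one end and PCs at the other for both. The ER trimming share was 11.2 to 11.6%, 10.5 to 12.1% and 11.8 to 13.1%, so that activated B cells overlapped with both other groups. St6gal1, Mgat1, Man1a and Fut8 together made up most of the Golgi sum in PCs.

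**Figure D5:**
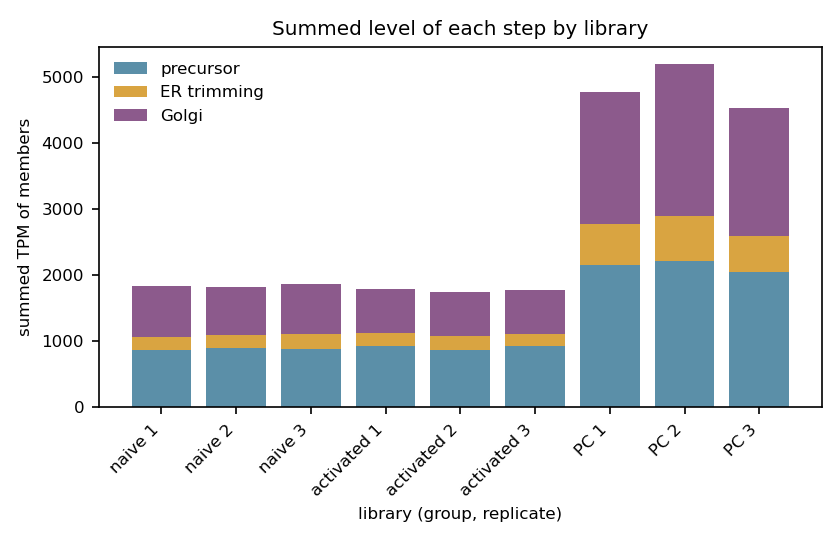
Summed TPM of the 23 precursor, 5 ER trimming and 11 Golgi genes, stacked, in each of the 9 libraries. The 6 B cell libraries reach 1749 to 1869 TPM and the 3 PC libraries 4539 to 5197 TPM, with similar proportions of the steps.

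A list of 38 further genes of the pathway, of which 33 were tested, had called genes in both directions. Their calls were not examined with the Ig genes kept, under other scalings or with a library left out. In PCs 12 rose and 6 fell against the naive group, where 11.4% of all genes tested rose and 26.3% fell, and 11 rose and 3 fell against activated B cells, where 9.93% and 22.3% did. Genes of lectins that bind the glycan in the ER rose by very different amounts. Lman1, the cargo receptor that binds mannose on exported glycoproteins, stood at 16.7, 17.7 and 22.3 TPM in naive B cells, 27.8, 29.0 and 29.5 in activated B cells and 624, 614 and 637 in PCs (log2 change 5.02 ± 0.12 against naive, limma adjusted p = 1.82e-10). Against the naive group Calr, the soluble lectin chaperone, rose by 2.70 ± 0.16 (adjusted p = 1.26e-07) and Mlec, which binds glucosylated glycans, by 2.77 ± 0.15 (adjusted p = 5.67e-08). Calr was lower in activated than in naive B cells by less than 2-fold (-0.70, adjusted p = 0.00944). Canx, the membrane-bound lectin chaperone, had smaller log2 changes, at 1.25 ± 0.13 against the naive group (adjusted p = 1.16e-05) and 0.86 against activated B cells, under 2-fold (adjusted p = 0.000182).

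The 6 of 33 genes that fell against the naive group, where 26.3% of all genes tested fell, were Mgat5, B4galt3, Fpgt, Manba, Neu1 and Fuk. They have roles in branching, galactose transfer, fucose salvage and lysosomal breakdown, and none of these roles was tested as a set. Neu1 (log2 change -1.08) and Fuk (-1.06) lay near the 2-fold limit. Median-of-ratios scaling shifted the median log2 change of all genes by 0.49 in this comparison. Mgat5, which adds a further branch, stood at 5.84, 6.09 and 5.84 TPM in naive B cells, 3.84, 6.36 and 2.51 in activated B cells and 1.19, 0.908 and 0.963 in PCs, a log2 change of -2.09 ± 0.34 against the naive group (limma adjusted p = 0.0003). B4galt3, a galactosyltransferase paralog, fell by 1.95 in log2 against the naive group (adjusted p = 2.09e-06), the fucose salvage gene Fpgt by 1.54, and the lysosomal mannosidase gene Manba by 1.45. Mgat5, B4galt3 and Manba were also the 3 that fell against activated B cells.

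Between activated and naive B cells, 2 of these 33 genes rose and 2 fell, where 8.13% and 10.4% of all genes tested did. Both that rose, Cmas and Nans, act in sialic acid synthesis, while Gne of the same route did not rise (log2 change -0.39, limma adjusted p = 0.101). The route was not tested as a set. Cmas, which makes CMP-sialic acid, stood at 10.1, 6.04 and 10.9 TPM in naive B cells, 81.9, 50.4 and 63.9 in activated B cells and 42.7, 41.9 and 34.8 in PCs, so that it was highest in the middle group (log2 change 2.80 ± 0.26 at activation, limma adjusted p = 1.84e-05, and -0.69 from there to PCs, adjusted p = 0.0124). Nans, an enzyme earlier on that route, rose by 1.40 ± 0.13 at activation (adjusted p = 2.2e-05) and by 3.16 ± 0.12 in PCs against the naive group (adjusted p = 5.83e-09). Uggt2, the paralog of Uggt1, fell by 1.49 in log2 at activation (adjusted p = 0.00582), and Fpgt by 1.25 (adjusted p = 0.00932). The myeloid genes Cd68 and Itgam were also higher in every activated library, as given above, and their part in these differences was not tested.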

How the data were processed

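The authors pseudoaligned reads with kallisto, and the submitters' processing notes also name limma and the build mm10. The deposited TPM values, which are corrected for transcript length, were summed by gene symbol in 2 tables, 1 of them without Ig genes. The log2 values the authors deposited came from voom and served to estimate reads per library and as an alternative. No per-sample column was left unmapped (0). TPM of the table without Ig genes, scaled to the column sum with an offset of 0.5, was fitted with voom and limma (3.58.1, R 4.3.3) over all 9 libraries with 3 group means and no block. A log2 change is thus on the log2(TPM + 0.5) scale, which understates low genes. Testing took genes that reached a TPM of 1 in 3 or more libraries, with p-values adjusted by Benjamini-Hochberg over all 12892. The scripts were tested on simulated data. Reads came from 2 sequencer types and which library ran on which is not given in the sources used here. Gene coordinates are from GENCODE on GRCm38. Per-library values were given for members called in any comparison, the most abundant of each step and paralog pairs. They were also given for Pmm2, Uap1, Dpm2, Mogs, Slc35a1 and B4galt1, which were called in no comparison. Of the other pathway genes up to 3 per direction and comparison were named, while Canx, Gmds, Gnpnat1, Tsta3, Pmm1, Neu1, Fuk, Slc35a2 and Alg10b were added after their values were seen. The members and lists were chosen with earlier results of these data known. Alternatives changed the Ig genes, scaling, pseudocount (1 or 0.1), filter (none, or mean TPM of at least 10), the replicate block, the libraries in the fit, and left out each library in turn. They were examined for the members and for counts over all genes, not for the other pathway genes.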

Additional observations from a re-analysis of the deposited data

How the results depend on the processing

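Calls in PCs moved most with the Ig genes kept (7 members higher and 6 lower against naive B cells, 7 and 4 against activated B cells, against 22 and 0, and 24 and 0). Beside members that stayed under 2-fold in both fits, log2 changes that turned negative with Ig genes kept were, against naive B cells, those of Alg6 (-0.13), Alg13 (-0.064), Alg14 (-0.062), Dpm3 (-0.045) and Slc35a1 (-1.07), and against activated B cells those of Alg6 (-0.040), Alg8 (-0.085), Uggt1 (-0.092), Slc35a1 (-1.004) and Slc35c1 (-0.16). Leaving out 1 library at a time gave 20 to 23 members higher against naive B cells, 23 to 26 against activated B cells and 0 lower in both.

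Between activated and naive B cells, 4 members were higher under median-of-ratios scaling or with log2(TPM + 0.1), against 2, and 1 was lower under median-of-ratios scaling, against 2. Leaving out 1 library at a time gave 2 to 4 higher, the 4 being without activated replicate 2, and 2 lower each time.

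Medians of a step minus that of all genes moved as follows, and the cause was not tested. Between activated and naive B cells the precursor median of 0.14 became -0.014 with a mean TPM of at least 10. Against naive B cells the precursor median of 1.49 became 1.34 with Ig genes kept, 1.62 with quantile normalization, 1.62 with the deposited log2 values, 1.41 with log2(TPM + 1), 1.60 with log2(TPM + 0.1), 1.20 with no filter and 1.42 to 1.55 without 1 library. The ER trimming median of 2.07 became 1.79 with Ig genes kept, 1.78 with no filter and 1.94 to 2.15 without 1 library, and the Golgi median of 1.93 became 1.63 with Ig genes kept, 1.28 with quantile normalization, 1.63 with no filter and 1.61 with a mean TPM of at least 10. Against activated B cells the precursor median of 1.46 became 1.32 with Ig genes kept, 1.16 with no filter, 1.68 with a mean TPM of at least 10 and 1.46 to 1.62 without 1 library. The ER trimming median of 2.38 became 2.15 with Ig genes kept and 2.07 with no filter, and the Golgi median of 1.31 became 1.12, 1.01 and, with a mean TPM of at least 10, 1.69. Without the most abundant gene of each step, the precursor share was 51.7% in naive B cells, 56.7% in activated B cells and 47.4% in PCs, the ER trimming share 7.84%, 7.44% and 11.05%, and the Golgi share 35.9% in activated B cells and 41.6% in PCs.

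The labels do not say that libraries with the same replicate number share a mouse, and the data gave no sign of a pairing. Same-numbered libraries had correlations of -0.075 to 0.068 in their deviations from group means. With the replicate number as a block, 3 members were higher and 2 lower between activated and naive B cells, 23 and 0 in PCs against naive and 24 and 0 against activated B cells, the added members being Man2a2 (1.70, limma adjusted p = 0.0274) and Mogs (1.43, limma adjusted p = 0.0194).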
